A study of Homo sapiens with 6 samples.

Results

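The 10 genes described here encode proteins that cut or carry small peptides, or belong to their families, at the surface and in the cytosol of colorectal cancer cells: *DPEP1*, *SLC15A1*, *ANPEP*, *DPP4*, *CNDP2*, *GGT1*, *GGT7*, *LAP3*, *PEPD* and *XPNPEP1*. They were taken by symbol from a table of 46427 genes, and all 10 were among the 18366 genes with enough reads to be tested. *DPEP1* and *SLC15A1* were chosen because their reads in these same libraries differed widely between the genotypes, so their values are given as a description, without a test. The other 8 genes were chosen for their role in peptide breakdown, with earlier results of these data known.

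The samples were cultures of HCT116, an established human colorectal carcinoma cell line. Parental cells with wild type *ZKSCAN3* (*ZK3*-WT) were compared with *ZKSCAN3* knockout cells (*ZK3*-KO), in which CRISPR/Cas9 was aimed at the start codon in the first exon of both alleles. Each group had 3 libraries, made as biological triplicates in DMEM with fetal bovine serum and with no further treatment. *ZKSCAN3* encodes a zinc finger transcription factor with KRAB and SCAN domains. The edited cells were selected with puromycin from single cells and were compared with parental cells rather than with a selected control clone, so traits of a clone and effects of the lost gene cannot be told apart here. Whether the 3 *ZK3*-KO libraries came from 1 clone or several is not stated in the sources used here.

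Between 60827060 and 69739215 reads were counted per library. *ZK3*-KO replicate 3 stood apart from its group: the chi-square per degree of freedom of its counts was 349 and 543 against *ZK3*-KO replicates 1 and 2, while those replicates differed from each other by 62.4 and the *ZK3*-WT pairs by 41.5 to 95.1. Values that rest on this library are therefore also given without it. *ZKSCAN3* itself was read at 28.1, 23.4 and 19.8 CPM (read counts scaled to library size, counts-per-million) in *ZK3*-WT and at 25.4, 24.9 and 13.6 in *ZK3*-KO, a log2 fold change of -0.16 (SE 0.27). Its false discovery rate (FDR), from the quasi-likelihood test of edgeR over all genes, was 0.797. Reads summed over the gene do not show whether the start codon was lost. *ZKSCAN3* also overlaps *ZSCAN31* on the opposite strand, a gene with a log2 fold change of -1.37 (FDR 0.0467), and whether counting used the strand is not given in the sources used here. All 7 epithelial marker genes were expressed, with a summed level of 2951 to 3743 CPM in *ZK3*-WT and 2741 to 5448 in *ZK3*-KO. All 5 leukocyte markers stayed under 1 CPM in every library, among them *PTPRC* and *CD3E*, which had no read. Of 6 fibroblast markers 5 were under 1 CPM, the exception being *COL1A1*, and the list summed to 44.8 to 57.0 CPM in *ZK3*-WT and 32.8 to 99.3 in *ZK3*-KO. Of 4 endothelial markers 2 were under 1 CPM, and their sum ran from 1.48 to 2.40 CPM in *ZK3*-WT and from 0.851 to 2.50 in *ZK3*-KO.

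Proteins that reach the gut or the cell surface are trimmed to short peptides in stages. Aminopeptidases and dipeptidyl peptidases on the outer membrane cut residues from the free amino end, membrane dipeptidases split the last peptide bond of dipeptides, and proton-coupled transporters carry the remaining dipeptides and tripeptides into the cell, where cytosolic dipeptidases release the amino acids. The same enzymes meet in glutathione breakdown: a gamma-glutamyl transferase removes the glutamyl group outside the cell, and the cysteinylglycine that is left is a substrate of membrane dipeptidase. In the small intestine these proteins sit densely in the brush border of enterocytes, while several of them also appear in kidney tubule and in tumours.

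The promoters of *DPEP1* and *SLC15A1* are shown first because the read counts of these genes moved in opposite directions. RefSeq lists 4 start sites for *DPEP1* and 1 for *SLC15A1* (GRCh38.p14 table, and each window was found exactly once in GRCh37, the build of the files). The 250 bases before the start are printed 5′ to 3′ on the strand of the gene, as the reference has them and not as read in these cells. Capitals mark the only match in each window among 4 short motifs searched on both strands. The TATA box was searched with the letters TATAAA. The GC box was searched as GGGCGG. For the box that binds NF-Y the letters were CCAAT. The core of the TCF/LEF site was taken to be CTTTGA, and none of the 4 strings holds another. The *DPEP1* window belongs to the most downstream start, chr16:89696428-89696677 on the plus strand, and lies inside introns of longer annotated transcripts. The *SLC15A1* window is chr13:99404927-99405176 on the minus strand.
DPEP1: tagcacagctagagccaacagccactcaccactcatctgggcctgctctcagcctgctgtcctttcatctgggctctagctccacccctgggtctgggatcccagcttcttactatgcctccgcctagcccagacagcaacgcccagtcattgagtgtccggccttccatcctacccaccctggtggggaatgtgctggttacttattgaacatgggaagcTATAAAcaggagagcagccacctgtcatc
SLC15A1: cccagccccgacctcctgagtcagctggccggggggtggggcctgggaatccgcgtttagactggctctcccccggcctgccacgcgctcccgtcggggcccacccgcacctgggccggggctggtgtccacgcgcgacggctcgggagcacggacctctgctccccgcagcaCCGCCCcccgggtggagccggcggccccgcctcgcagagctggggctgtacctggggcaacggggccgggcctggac

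The printed *DPEP1* window held TATAAA from base -29 to base -24 before the start, a motif found in 10.7% of 35116 RefSeq promoters of the same length. Of the 4 *DPEP1* windows only this 1 held it, and a match in any of 4 windows is more common than that share. The printed window had a GC content of 56.4% and 3 CpG dinucleotides, the lowest of the 4 in both, where the median promoter had 58% and 11. The *SLC15A1* window was far richer in both, with 77.6% GC and 26 CpG, and 93.8% of promoters had a lower GC content. Its match was to GGGCGG on the opposite strand, from base -77 to base -72, a motif present in 42.6% of promoters. The other 3 *DPEP1* windows had 59.2% to 62.8% GC and 5 to 12 CpG. One of them, from base 89683043 to 89683292 of chromosome 16, held CTTTGA from base -234 to base -229 and CCAAT from base -220 to base -216, both on the opposite strand. Another, from base 89686755 to 89687004, held CTTTGA on the opposite strand from base -166 to base -161, and the remaining window held none of the motifs. CTTTGA was present in 11.2% and CCAAT in 32.0% of RefSeq promoters. Counts summed per gene do not show which start was used, and a match of letters is not evidence that a factor binds there.

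*DPEP1* (chromosome 16, bases 89679716 to 89704864, plus strand) encodes a membrane dipeptidase that is anchored to the outer cell surface by a lipid and also converts leukotriene D4 to leukotriene E4. Its reads numbered 26, 14 and 13 in the *ZK3*-WT libraries and 4203, 3204 and 5204 in the *ZK3*-KO libraries. Scaled to depth these were 0.413, 0.200 and 0.186 CPM against 65.3, 46.2 and 84.2 CPM. Every *ZK3*-KO library was far above every *ZK3*-WT library, and the lowest of the former exceeded the highest of the latter 112-fold. The group means were 0.266 ± 0.128 and 65.2 ± 19.0 CPM (SD, n = 3 each), a 249.7-fold difference against the pooled *ZK3*-WT reads, with a range of 191 to 333 from the 95% Poisson interval of those 53 reads, which covers counting error only. The fitted log2 fold change was 7.94 (SE 0.42), the rank 2 rise of all 18366 genes. *ZK3*-KO replicate 3 had the highest level, and the change was 7.72 without it. By TPM (transcripts-per-million), a scale that divides by transcript length and so allows a comparison between genes, *DPEP1* moved from rank 16797 to rank 1825 of the tested genes.

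*SLC15A1* (chromosome 13, bases 99336055 to 99404926, minus strand) encodes PEPT1, the proton-coupled transporter that brings dipeptides and tripeptides across the apical membrane of enterocytes. The *ZK3*-WT libraries held 328, 437 and 344 reads and the *ZK3*-KO libraries 0, 5 and 0. On the CPM scale these were 5.22, 6.23 and 4.92 against 0, 0.0721 and 0. Only *ZK3*-KO replicate 2 had any read of the gene, and a count of 0 in *ZK3*-KO replicates 1 and 3 allows a level of up to 0.0466 and 0.0485 CPM (3 reads each). The means were 5.46 ± 0.689 CPM in *ZK3*-WT and 0.0240 ± 0.0416 CPM in *ZK3*-KO (SD, n = 3 each). Set against the 5 pooled *ZK3*-KO reads, the *ZK3*-WT level was 213-fold higher, with a counting interval of 91.4 to 657. The fitted log2 fold change of -7.65 (SE 0.78) depends on the prior count that the model adds, and it became -11.49 when *ZK3*-KO replicate 2 was left out and the group had no read. Without *ZK3*-KO replicate 3 it was -7.12. By TPM, *SLC15A1* ranked 12007 of the 18366 tested genes in the parental cells, in the lower part of the range, and 18309 in *ZK3*-KO cells. No annotated gene overlaps *DPEP1* or *SLC15A1* in GRCh37, and RNA from fewer cells cannot be told apart from less RNA per cell in such bulk libraries.

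Among the other 8 genes, 1 rose and 0 fell at an FDR of 0.05 in edgeR's test, and 7 did not pass. For comparison, 2.05% of all genes tested passed, 0.817% as higher and 1.23% as lower in *ZK3*-KO. At an unadjusted p of 0.05, 3 of the 8 passed (18.4% of all genes). The libraries of the 2 genotypes did not overlap in 3 of the 8, with *DPP4* and *XPNPEP1* higher and *GGT1* lower in *ZK3*-KO, where 26.6% of all genes did not overlap. The median log2 fold change of the 8 was 0.12, beside 0.02 over all genes, and 6 of the 8 were above 0.

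*DPP4*, also known as CD26, was the member that rose. It is a surface serine protease that removes dipeptides ending in proline or alanine from the amino end of peptides, including the incretin hormones, and lies on chromosome 2 from base 162848755 to 162930904 on the minus strand. Its level was 9.08, 6.82 and 6.52 CPM in *ZK3*-WT and 22.7, 25.7 and 15.6 CPM in *ZK3*-KO. The genotypes did not overlap, and *ZK3*-KO replicate 3 was the lowest of its group. The means were 7.47 ± 1.40 and 21.3 ± 5.21 CPM (SD, n = 3 each). This log2 fold change of 1.51 (SE 0.24) passed edgeR's test at an FDR of 0.0283. Without *ZK3*-KO replicate 3 the change was 1.70 with an FDR of 0.00127. The call was lost when any other library was left out: the FDR was 0.0832, 0.177 and 0.157 without *ZK3*-WT replicates 1, 2 and 3, and 0.124 and 0.0729 without *ZK3*-KO replicates 1 and 2. Calls over all genes fell as well, from 376 with all libraries to 67, 49 and 57 without *ZK3*-WT replicates 1, 2 and 3. Without *ZK3*-KO replicate 1 they numbered 74. The *DPP4* call was also lost in a linear model on log2(TPM + 1), where the change was 1.20 with an FDR of 0.0884. It was kept in 7 of 13 alternatives, among them DESeq2 (FDR 1.80e-06) and edgeR with the replicate number as a block (FDR 0.0195).

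*ANPEP*, which encodes aminopeptidase N, the surface enzyme that removes single residues from the amino end of peptides, was close to the limit of detection. The gene had 9, 16 and 8 reads in *ZK3*-WT and 0, 5 and 16 reads in *ZK3*-KO. The groups overlapped, since *ZK3*-KO replicate 3 had the highest level of all 6 libraries and *ZK3*-KO replicate 1 had no read. The log2 fold change was -0.56 (SE 0.97, FDR 0.801), and without *ZK3*-KO replicate 3 it was -2.07 (FDR 0.180).

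The gamma-glutamyl transferases did not pass the test. *GGT1*, which cleaves glutathione outside the cell and lies on chromosome 22 from base 24990778 to 25024972 on the plus strand, was read at 12.6, 7.90 and 13.3 CPM in *ZK3*-WT and at 5.93, 3.79 and 6.99 CPM in *ZK3*-KO. Its *ZK3*-KO libraries were all below its *ZK3*-WT libraries, and replicate 2 was the lowest of each group. The log2 fold change was -1.01 (SE 0.30) with an FDR of 0.146 in edgeR's test. With the replicate number as a block, the change was -1.02 and the FDR 0.0396, and without *ZK3*-KO replicate 3 they were -1.20 and 0.0246. *GGT1* has near-identical copies, among them *GGT2* and *GGT3P*, and reads that match several copies may have been split, so its level is uncertain. *GGT7*, a relative of *GGT1*, was at 15.5, 15.1 and 20.4 CPM against 17.2, 14.4 and 29.8 CPM, and the groups overlapped. Its log2 fold change was 0.27 (SE 0.29, FDR 0.673), and it was -0.10 once *ZK3*-KO replicate 3, which held the highest level, was left out. *GGT7* overlaps *ACSS2* on the opposite strand, whose log2 fold change was 0.15 (FDR 0.845).

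The cytosolic peptidases were abundant in both genotypes, and none passed an FDR of 0.05. *CNDP2*, a dipeptidase of broad specificity, had levels of 69.8, 91.0 and 85.2 CPM in *ZK3*-WT and 69.6, 93.4 and 87.2 CPM in *ZK3*-KO. Its log2 fold change was 0.02 (SE 0.17, FDR 0.960), and the spread within each group, 11.0 and 12.4 CPM (SD), was larger than the difference of the means, 82.0 and 83.4 CPM. *PEPD*, prolidase, which splits dipeptides ending in proline, was at 37.7, 35.4 and 35.8 CPM against 40.8, 44.0 and 34.1 CPM, a change of 0.13 (SE 0.15, FDR 0.702). *LAP3*, leucine aminopeptidase, was at 62.1, 57.9 and 54.3 CPM against 70.1, 75.0 and 43.9 CPM, a change of 0.12 (SE 0.21, FDR 0.814). In both of these genes *ZK3*-KO replicate 3 had the lowest level of the 6 libraries, while the other *ZK3*-KO libraries were above all *ZK3*-WT libraries. Without that library their log2 fold changes were 0.23 (FDR 0.257) and 0.33 (FDR 0.118).

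*XPNPEP1*, the cytosolic aminopeptidase P, which removes a residue ahead of proline, had 83.5, 81.7 and 85.4 CPM in *ZK3*-WT and 104, 95.7 and 141 CPM in *ZK3*-KO. The groups did not overlap, and *ZK3*-KO replicate 3 was the highest. The means were 83.5 ± 1.87 and 114 ± 23.9 CPM (SD, n = 3 each). The log2 fold change of 0.44 (SE 0.18) had an FDR of 0.241 in edgeR's test, and without *ZK3*-KO replicate 3 it was 0.27 with an FDR of 0.167.

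**Figure D1:**
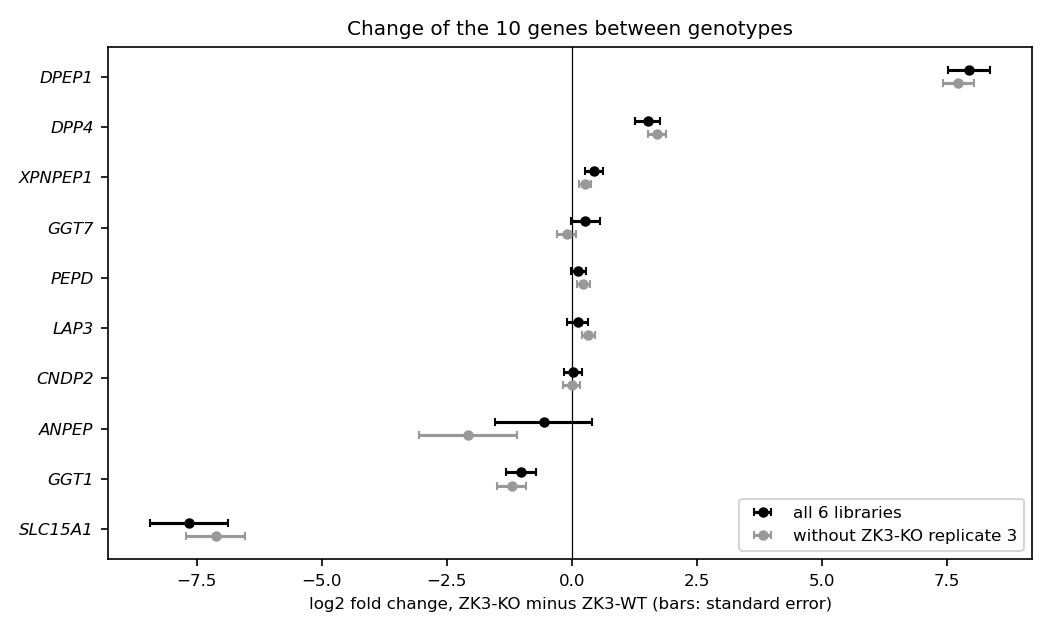
Log2 fold change (*ZK3*-KO over *ZK3*-WT) of the 10 genes from edgeR's fit, with bars for ± 1 SE, for all 6 libraries (black) and without *ZK3*-KO replicate 3 (grey). *DPEP1* lies at 7.94 and *SLC15A1* at -7.65, and the other 8 genes lie between -1.01 and 1.51 with all libraries.

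Levels per transcript length set the 10 genes in an order. In *ZK3*-WT, *XPNPEP1* was highest at 70.9 ± 0.985 TPM (SD, n = 3), then *LAP3* at 58.4 ± 3.85, *PEPD* at 40.2 ± 0.941 and *CNDP2* at 34.7 ± 5.29 TPM. The libraries of *PEPD* and *CNDP2* overlapped, so their order is not resolved. *GGT7* at 13.7 ± 2.03 TPM and *GGT1* at 9.37 ± 2.19 TPM followed, and then *DPP4* at 4.40 ± 0.781 and *SLC15A1* at 3.69 ± 0.544 TPM, which overlapped. *DPEP1*, at 0.293 ± 0.175 TPM, and *ANPEP*, at 0.0916 TPM, were the lowest. In *ZK3*-KO the order differed mainly in *DPEP1*, which at 72.4 ± 13.7 TPM overlapped both *XPNPEP1* (87.3 ± 6.63) and *LAP3* (59.6 ± 21.5). *PEPD* and *CNDP2* came next at 40.9 ± 9.66 and 32.4 ± 5.74 TPM, and their libraries overlapped again. *DPP4* reached 11.8 ± 4.04 TPM and overlapped *GGT7* at 15.1 ± 3.71, while *GGT1* was below both at 4.29 ± 0.961 TPM. The bottom of the order was held by *ANPEP* and *SLC15A1*, at 0.0518 ± 0.0587 and 0.0160 ± 0.0276 TPM, which overlapped. Among the 91 peptide-handling genes examined, *DPEP1* ranked 66 or 67 by TPM in each *ZK3*-WT library and from 11 to 19 in the *ZK3*-KO libraries, and its share of their summed TPM went from at most 0.0170% to between 1.92% and 3.20%.

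**Figure D2:**
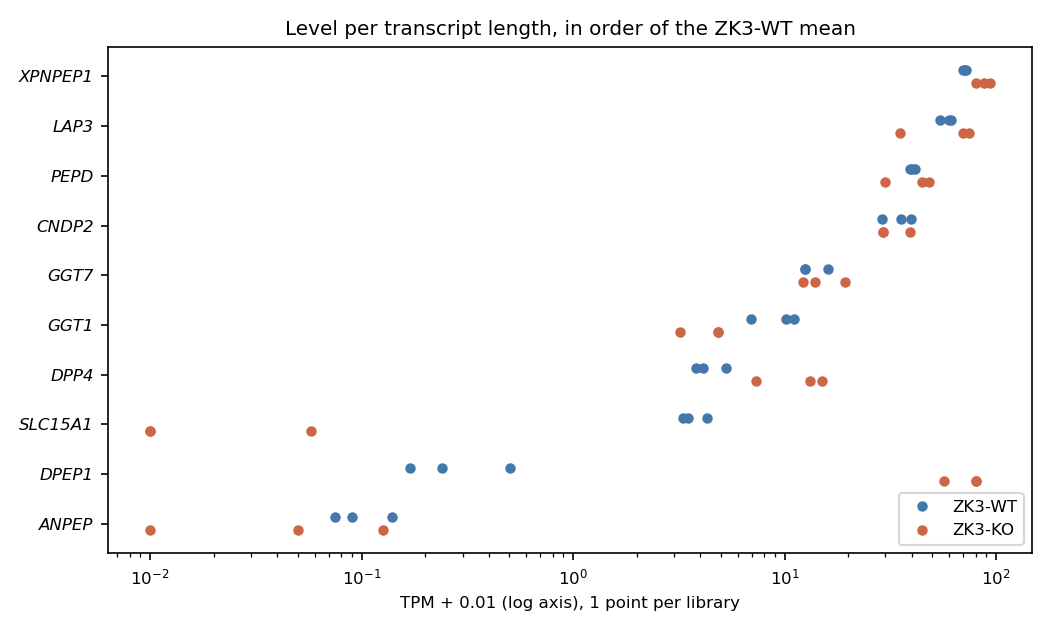
Level of each gene in TPM on a log axis, with a small constant added so that libraries at 0 can be drawn, with 3 points per genotype and genes ordered by their mean in *ZK3*-WT. *DPEP1* shifts from near the bottom (0.293 TPM) to the level of *XPNPEP1* and *LAP3* (72.4 TPM), *SLC15A1* drops to 0.0160 TPM, and the cytosolic enzymes lie in the upper part of the order in both genotypes.

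Genes beside *DPEP1* and *SLC15A1* on their chromosomes were examined to see whether their counts differed as well. The 3 nearest tested genes on each side of *DPEP1* were *RPL13*, *SNORD68* and *CPNE7* before it and *CHMP1A*, *SPATA33* and *CDK10* after it, with starts 27.5 to 67.4 kb away. Their log2 fold changes ran from 0.05 for *CDK10* to 0.43 for *CHMP1A* (SE 0.15, FDR 0.183), a subunit of the membrane-remodelling ESCRT-III complex, whose *ZK3*-KO libraries were all above its *ZK3*-WT libraries. Around *SLC15A1* these were *FARP1*, *STK24*, *STK24-AS1*, *DOCK9*, *UBAC2-AS1* and *UBAC2*, with starts farther off, 107 to 541 kb away. Their changes ran from -0.39 for *UBAC2-AS1* (FDR 0.460) to 0.89 for *STK24-AS1* (FDR 0.459). Of these 12 neighbours 0 passed at an FDR of 0.05 in edgeR, 0 passed in DESeq2 and 1 had an unadjusted edgeR p below 0.05. Over all genes these shares were 2.05%, 8.2% and 18.4%, so few calls would be found among any 12 genes. Without *ZK3*-KO replicate 3, *STK24*, which encodes a protein kinase, had a log2 fold change of -0.53 (FDR 0.0424), against -0.03 (FDR 0.974) with all libraries. In the fit without that library 15.1% of all genes passed.

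**Figure D3:**
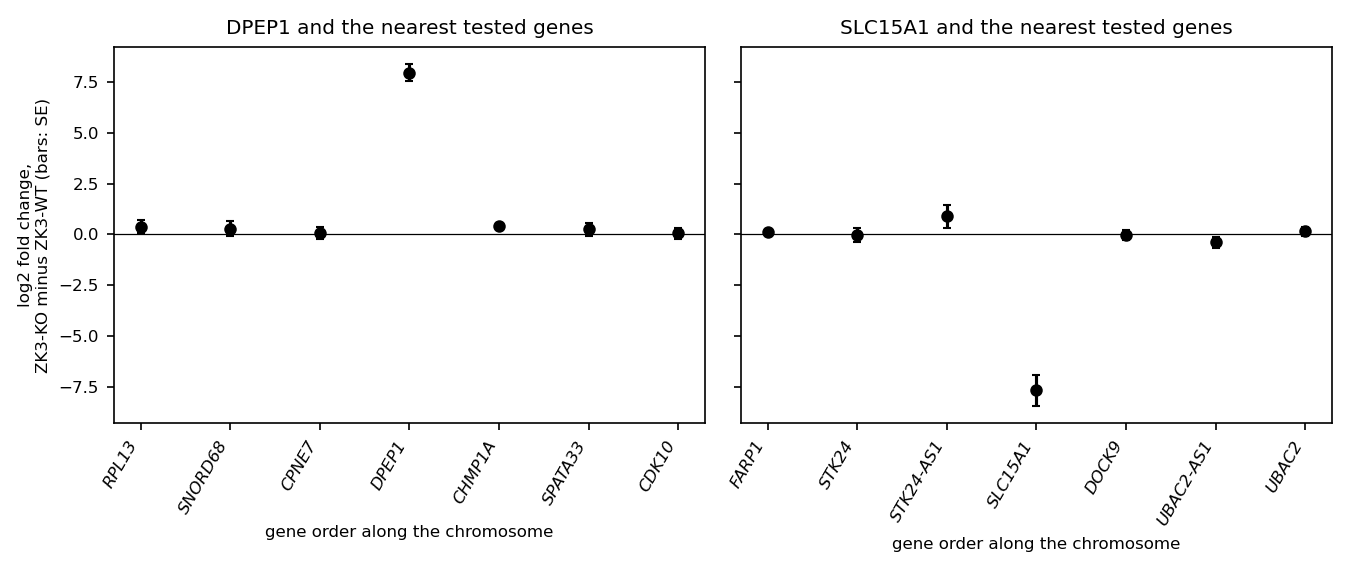
Log2 fold change (*ZK3*-KO over *ZK3*-WT, ± 1 SE) of *DPEP1* and *SLC15A1* and of the 3 nearest tested genes on each side, in the order of their starts. The neighbours lie between -0.39 and 0.89, and *DPEP1* and *SLC15A1* lie at 7.94 and -7.65.

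Genes with a like profile over the 6 libraries were ranked by the root mean square difference of log2(CPM + 0.5), each gene centred on its own mean. Nearest to *DPEP1* was *ANXA10*, an annexin, with a difference of 0.633 and levels of 0.350, 0.314 and 0.400 CPM in *ZK3*-WT and 28.1, 37.5 and 36.0 CPM in *ZK3*-KO. *TTN* (1.14), *SNTG2* (1.25), *HAS3* (1.52) and *CD33* (1.53) followed at a larger distance. *LOC107984158* (0.187), *LINC00698* (0.248), *VSNL1* (0.283), *SERPING1* (0.287) and *OR51B2* (0.340) were nearest to *SLC15A1*. These genes were picked for their pattern in these libraries, so the likeness is a description and was not tested.

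To place the 10 genes in their pathway, 81 further genes of peptide transport, peptide cleavage, the gamma-glutamyl transferases and the gamma-glutamyl cycle were listed, and 60 of them had enough reads to be tested. The lists of leukotriene steps and of the enterocyte brush border were kept apart from these counts. Of the 60, 0 rose and 2 fell at an FDR of 0.05 in edgeR's test, *CTSH* and *OPLAH*. The other 58 did not pass, and 13 of the 60 had an unadjusted p below 0.05. Over all genes 2.05% passed, 0.817% as higher and 1.23% as lower, and 18.4% had an unadjusted p below 0.05. The median log2 fold change of the 60 was 0.04, beside 0.02 over all genes, with 33 of 60 above 0. With the replicate number as a block 4 passed, *CPM* as higher and *CTSH*, *OPLAH* and *ERAP1* as lower, where 2.51% of all genes passed, 0.969% as higher and 1.54% as lower. Without *ZK3*-KO replicate 3, 5 rose and 9 fell, where 15.1% of all genes passed, 7.41% as higher and 7.73% as lower. The count was 0 without any 1 of the *ZK3*-WT replicates or without *ZK3*-KO replicate 1, with 10 to 13 genes at an unadjusted p below 0.05, and it was 1, *CPM*, without *ZK3*-KO replicate 2. In the settings with a count of 0, only 49 to 74 of all 18776 to 18864 genes tested passed. Of all genes in these settings, 1903 to 2879 had an unadjusted p below 0.05. Without *ZK3*-KO replicate 3 the 5 that rose were *CPM*, *DPP3*, *DPP9*, *BLMH* and *CHAC2*. The 9 that fell in that setting were *CTSH*, *ACE*, *ECE1*, *GGT5*, *OPLAH*, *ERAP1*, *PGPEP1*, *RNPEPL1* and *ERAP2*. Of these, *DPP9*, *BLMH*, *CHAC2*, *ERAP1*, *ACE*, *PGPEP1* and *RNPEPL1* are named after their values were seen.

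*CTSH* encodes cathepsin H, a lysosomal protease that acts mainly as an aminopeptidase. Its level was 24.3, 25.0 and 21.8 CPM in *ZK3*-WT and 7.75, 6.91 and 11.5 CPM in *ZK3*-KO, and the groups did not overlap. The means were 23.7 ± 1.70 and 8.70 ± 2.42 CPM (SD, n = 3 each). This log2 fold change of -1.44 (SE 0.22) passed edgeR's test at an FDR of 0.0259. Without *ZK3*-KO replicate 3 it was -1.69 with an FDR of 8.02e-04. The call was lost without *ZK3*-WT replicate 1, 2 or 3 (FDR 0.112, 0.153 and 0.111) and without *ZK3*-KO replicate 1 or 2 (FDR 0.124 and 0.0639). It was kept in 8 of 13 alternatives, among them DESeq2 (FDR 5.72e-07). *OPLAH* encodes 5-oxoprolinase, which returns 5-oxoproline to glutamate in the gamma-glutamyl cycle, after the step of the gamma-glutamyl transferases. It was read at 31.2, 26.3 and 41.3 CPM in *ZK3*-WT and at 8.68, 6.19 and 13.9 CPM in *ZK3*-KO. Every *ZK3*-KO library was below every *ZK3*-WT library, with a log2 fold change of -1.78 (SE 0.32, FDR 0.0424) that became -2.14 (FDR 0.00153) without *ZK3*-KO replicate 3. For *OPLAH* the call was lost without *ZK3*-WT replicates 1, 2 and 3 (FDR 0.133, 0.152 and 0.180) and without *ZK3*-KO replicates 1 and 2 (FDR 0.164 and 0.0818). It was also lost with a filter of 1 read in any library (FDR 0.0538). The *OPLAH* call was kept in 7 of 13 alternatives, among them DESeq2 (FDR 1.29e-05). Over all genes, 49 to 74 passed without any 1 of the *ZK3*-WT replicates or without *ZK3*-KO replicate 1, against 376 with all libraries.

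The close relatives of *DPEP1* and *SLC15A1* either had too few reads to be tested or did not pass the test. *DPEP2* had no read outside *ZK3*-KO replicate 1, which held 17, and *DPEP3* had no read in any library, so neither was tested. *SLC15A4*, the lysosomal peptide and histidine transporter, was the most abundant peptide transporter in both genotypes at 21.0 ± 2.02 and 23.2 ± 2.19 CPM (SD, n = 3 each). Its log2 fold change was 0.14 (SE 0.15, FDR 0.673). *SLC15A2*, the high-affinity transporter PEPT2, was at 0.44 (SE 0.29, FDR 0.473). *SLC15A3* had at most 2 reads in any library and *SLC15A5* had none.

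No list around the members gave a gene past the threshold except those of *CTSH* and *OPLAH*. Of 10 further surface peptidases tested 0 passed in edgeR and 3 had an unadjusted p below 0.05, beside 2.05% and 18.4% of all genes. By DESeq2 *CPM* and *ACE* passed, a tool by which 8.2% of all genes passed, 3.87% as higher and 4.33% as lower. *CPM*, here the gene of carboxypeptidase M, had normalised levels of 8.11, 5.09 and 4.61 in *ZK3*-WT and 23.9, 11.4 and 26.1 in *ZK3*-KO, in the unit of the other genes. Its groups did not overlap, and its log2 fold change of 1.79 (SE 0.36) had an FDR of 0.0569 in edgeR's test, 0.0314 with the replicate number as a block and 0.0166 without *ZK3*-KO replicate 3. *ECE1*, endothelin-converting enzyme and the most abundant of these by TPM, was at -0.50 (FDR 0.323), and at -0.81 (FDR 0.00850) without *ZK3*-KO replicate 3.

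The 8 further dipeptidyl peptidase and prolyl oligopeptidase genes tested gave 0 calls in edgeR, 2 at an unadjusted p below 0.05 and 1 in DESeq2, *DPP9*. For these and the lists that follow, the shares over all genes were 2.05%, 18.4% and 8.2%. The most abundant of the 8 by TPM was *DPP7*, a lysosomal dipeptidyl peptidase, at 0.04 (FDR 0.941), and *DPP3*, a cytosolic metallopeptidase, was at 0.61 (FDR 0.169). The intracellular dipeptidase relatives gave 0 of 3 by either tool and 0 at an unadjusted p below 0.05, with *PM20D2* at 0.17 (FDR 0.847). Of 19 intracellular aminopeptidases and oligopeptidases 0 passed in edgeR, 4 at an unadjusted p below 0.05 and 3 in DESeq2, *BLMH*, *ERAP1* and *ERAP2*. *LTA4H*, which makes leukotriene B4 and is also an aminopeptidase, was the most abundant by TPM and had a change of -0.05 (FDR 0.908). *ERAP2*, which trims peptides for antigen presentation in the endoplasmic reticulum, was at -1.35 (FDR 0.0950), and at -1.21 (FDR 0.0414) without *ZK3*-KO replicate 3. In the lysosomal list *CTSH* was the 1 call among 8 genes, and *CTSZ*, cathepsin Z, the most abundant, was at 0.04 (FDR 0.911).

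Of 3 further gamma-glutamyl transferase genes tested 0 passed in edgeR, 1 at an unadjusted p below 0.05 and 1 in DESeq2, which in both cases was *GGT5*. Over all genes these shares were 2.05%, 18.4% and 8.2%. *GGT5*, which acts on leukotriene C4 as well as on glutathione, was read at 1.00, 4.52 and 3.29 CPM in *ZK3*-WT and at 0.776, 0.736 and 0.809 CPM in *ZK3*-KO, a log2 fold change of -1.92 (SE 0.52, FDR 0.118), and of -1.96 (FDR 0.0483) without *ZK3*-KO replicate 3. The same gene was the single DESeq2 call among 6 further genes of leukotriene steps, *LTA4H* of leukotriene B4 included, where edgeR gave 0. In the gamma-glutamyl cycle *OPLAH* was the 1 call of 7, and *GSS*, glutathione synthetase and the most abundant, was at 0.25 (FDR 0.633).

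*SLC15A1* was 1 of 3 brush border genes that reached 1 CPM in any library, and the other 14 of the 17 listed stayed below it in both genotypes. *VIL1*, *SI* and *ALPI*, the genes of villin, sucrase-isomaltase and intestinal alkaline phosphatase, were at or near 0. The summed level of the 17 genes, *SLC15A1* included, was 12.5 to 21.0 CPM in *ZK3*-WT and 6.72 to 7.30 CPM in *ZK3*-KO. Without *SLC15A1*, which was chosen for its fall, the sums were 7.25 to 14.8 and 6.72 to 7.23 CPM. These ranges did not overlap, but the lowest *ZK3*-WT sum, 7.25, was close to the highest *ZK3*-KO sum, 7.23. Of the 7 further genes tested 0 passed in edgeR, 2 at an unadjusted p below 0.05 and 1 in DESeq2, *LCT*. Over all genes these shares were 2.05%, 18.4% and 8.2%. *SLC9A3*, the apical sodium-proton exchanger NHE3, was the most abundant of the 7 by TPM at -0.63 (FDR 0.425). *LCT*, the gene of lactase, had 9, 8 and 6 reads in *ZK3*-WT and 34, 58 and 16 in *ZK3*-KO, a log2 fold change of 2.23 (FDR 0.0916), and of 2.57 (FDR 0.0109) without *ZK3*-KO replicate 3. *SLC5A1*, the sodium-glucose transporter SGLT1, named after its values were seen, was at -2.17 (FDR 0.196) with all libraries and at -3.51 (FDR 0.00581) without *ZK3*-KO replicate 3.

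**Figure D4:**
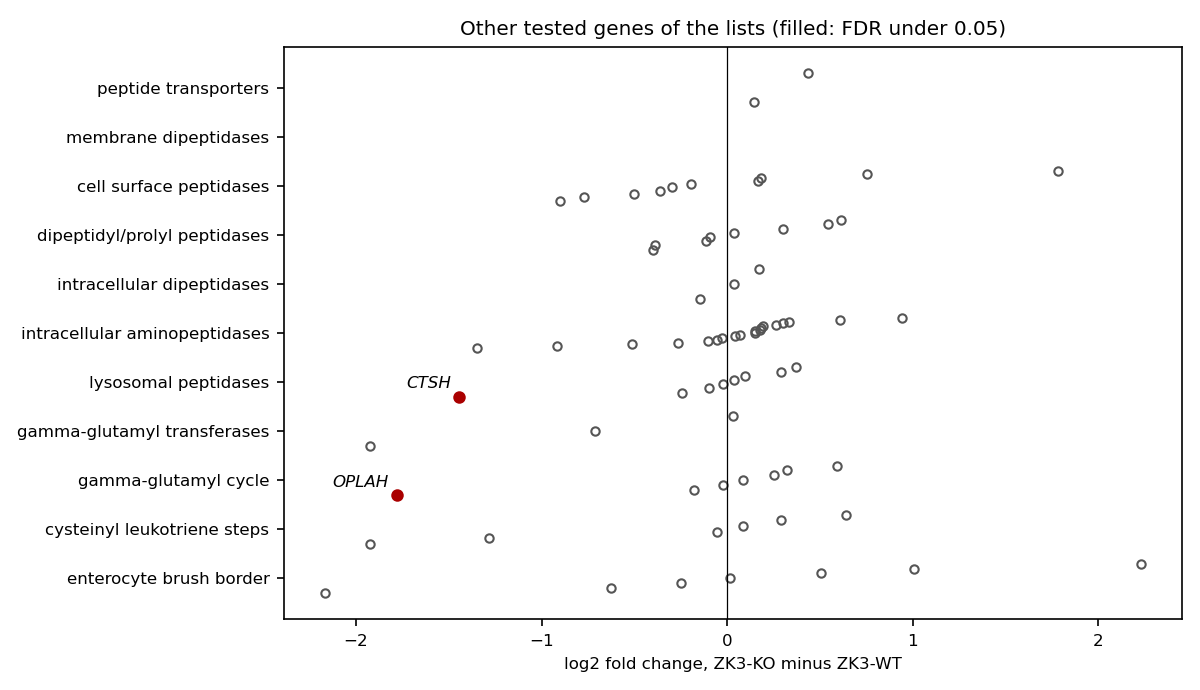
Log2 fold change (*ZK3*-KO over *ZK3*-WT) of the tested genes other than the 10 members, filled where the FDR in edgeR's test was below 0.05. Rows are the peptide-handling lists, the leukotriene steps and the enterocyte brush border, with 1 point per gene in each list that holds it. The filled points are *CTSH* at -1.44 and *OPLAH* at -1.78, and the remaining points lie on both sides of 0.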

How the data were processed

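RNA of 3 parental and 3 *ZK3*-KO HCT116 cultures was sequenced from stranded, poly(A)-selected paired-end libraries. The authors deposited 1 table with raw read counts per gene, FPKM values and TPM values for each library. The submitters' processing notes name Bowtie2 2.2.5 and hg19 (GRCh37), and the methods name an Ensembl annotation in Partek Flow, while the table lists NCBI Gene identifiers. The counting tool and its handling of shared reads and strand are not given in the sources used here. The deposited FPKM values were not used. The deposited TPM values, scaled by length, served for levels between genes and for 1 alternative.

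Counts were tested in R 4.3.3 with edgeR 4.0.16: filterByExpr left 18366 of 46427 genes, TMM factors ran from 0.910 to 1.03, and the quasi-likelihood test compared the genotypes with Benjamini-Hochberg adjustment over all genes at 0.05. Changes are *ZK3*-KO minus *ZK3*-WT, and CPM values are TMM-normalized. The members, lists and rules were chosen with earlier results of these data known, and every list was written from general knowledge. Named genes were the members, *ZKSCAN3*, list genes past the threshold, the most abundant and the most changed gene of each list, 3 tested neighbours on each side of *DPEP1* and *SLC15A1*, and the 5 nearest profiles to each. Positions came from GENCODE v44 on GRCh37, matched by symbol for 15972 genes, and promoters from RefSeq.

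Alternatives were DESeq2 1.42.0, upper-quartile factors, library totals alone, a filter of 1 read in any library, a filter of 10 reads in each library, limma 3.58.1 on log2(TPM + 1), the replicate number as a block, and each library left out in turn. Deviations from the group mean correlated across genes at 0.441, 0.124 and 0.584 for libraries with the same replicate number, taken from the labels. Pairs with unlike numbers ran from -0.516 to 0.273. The highest of these, *ZK3*-WT replicate 1 with *ZK3*-KO replicate 2, was above the matched pair of replicate 2. The replicate number entered only the block alternative, and the main test did not pair the libraries. No library was a copy of another by a chi-square test. The scripts were tested on simulated counts.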

Additional observations from a re-analysis of the deposited data

How the results depend on the processing

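Over all genes, 376 passed with all libraries, 1506 with DESeq2 and 49 to 2858 when 1 library was left out. Among the 8 tested members the count was 1, and it was 2 with DESeq2 or with the replicate block, 0 with the linear model on TPM (3 at an unadjusted p below 0.05) and 0 to 2 when 1 library was left out. Where it was 0 in that series, 2 or 3 members had an unadjusted p below 0.05. Among the 60 further peptide-handling genes it was 2, and it was 9 with DESeq2, 1 with all genes that had at least 1 read, 4 with the replicate block and 0 to 14 when 1 library was left out. The block moved *GGT1*, *CPM* and *ERAP1* past the threshold and changed no other call in these lists. The log2 difference of *DPEP1* was 7.94, between 7.72 and 8.39 with 1 library left out, and 5.82 on log2(TPM + 1), where the added 1 shrinks low levels. That of *SLC15A1* was -7.65, between -11.49 and -7.10 with 1 library left out, and -2.20 on log2(TPM + 1). The filter of 10 reads in each library removed *SLC15A1* and *ANPEP*, so that setting gave them no value. *DPP4*, *CTSH* and *OPLAH*, the tested list genes past the threshold with all libraries, kept their direction in all 13 alternatives.

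With 3 libraries per group, an unstated number of knockout clones and the spread added by *ZK3*-KO replicate 3, an FDR above 0.05 does not show equal levels. Counts of a few reads, as for *ANPEP*, *DPEP2* and *LCT*, limit what can be said of those genes. Transcript starts, protein amounts and peptide uptake were not measured in these libraries.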
